A study of Mus musculus with 3 samples.

Results

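Deep intragenic regions of long genes were places where all 3 CUT&Tag libraries for Flag-tagged Bcl11a had a peak in the interior of a long protein-coding gene. Peaks of the libraries that overlapped by at least 1 bp were joined, and a region was kept if it held a peak of all 3. It was a member if its summit lay inside a protein-coding gene, over 30 kb from both outer ends of that gene and over 1 kb from the ends of any gene. This rule gave 2193 members among 22987 regions shared by all 3 libraries, or 9.54%. Fold enrichment and pileup entered the choice through the peak calls alone, and width through the widest peak of each library, whose summit placed the region.

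The libraries came from bone marrow LSK cells of mice, which include the blood stem cells and the progenitors closest to them. According to the series design, the mice were knock-in animals with a 3xFlag tag at the amino end of Bcl11a, while the genotype field of all 3 samples reads wildtype. All 3 samples were replicates of this single group, no other group or treatment was sampled, and the age and sex of the animals were not given. Nothing in the labels says that the libraries came from separate animals, so the SDs and p-values below measure the spread between 3 libraries, which may be technical. No untagged or input library was analysed here, and signal of the tagged protein and transposase cutting at open chromatin cannot be told apart.

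Bcl11a is a zinc finger repressor best known for silencing embryonic and fetal globin genes in red cell precursors, and it is needed for B lymphocytes and for normal blood stem cells. Its carboxy-terminal zinc fingers bind the motif TGACCA in globin promoters, and it works with corepressor complexes such as NuRD. Introns of long genes often hold enhancers and alternative promoters, among them the red cell enhancer in an intron of Bcl11a itself.

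A small share of the deep regions lay at annotated transcription starts inside the gene, and the annotated windows at these starts are the DNA that could be read here. Among the members on chromosomes with annotated starts in the RefSeq promoter table, 117 of 2109 (5.55%) had their summit within 1 kb of a start. Of these, 110 lay at a start of their own gene and 7 at another start. The table held 671 starts that themselves lay in the deep interior of their own gene, and 123 of them (18.3%) had a member within 1 kb. These 123 starts belonged to 105 genes and were matched by 110 members, because neighbouring starts can share a region. The 8 windows below are the 250 bases before the start for the 8 members of highest summit pileup among those with the summit within 250 bp of a start. They are shown because they are the strongest places where deep intragenic signal fell on an annotated promoter. All are RefSeq sequence of GRCm38.p6, the assembly of mm10, written 5′ to 3′ along the gene's strand, and capitals mark matches to TGNCCA on either strand.

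Arhgap25: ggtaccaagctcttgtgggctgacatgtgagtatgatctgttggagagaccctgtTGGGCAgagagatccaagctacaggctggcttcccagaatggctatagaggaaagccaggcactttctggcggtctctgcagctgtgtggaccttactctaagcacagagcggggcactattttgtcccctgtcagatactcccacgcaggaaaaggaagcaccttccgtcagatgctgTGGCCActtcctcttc
Stag1: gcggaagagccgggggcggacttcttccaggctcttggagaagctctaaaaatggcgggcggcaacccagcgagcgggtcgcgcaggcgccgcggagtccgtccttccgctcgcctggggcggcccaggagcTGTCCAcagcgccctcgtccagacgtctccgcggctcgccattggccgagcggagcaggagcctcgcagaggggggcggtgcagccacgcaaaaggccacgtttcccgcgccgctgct
Rps6ka2: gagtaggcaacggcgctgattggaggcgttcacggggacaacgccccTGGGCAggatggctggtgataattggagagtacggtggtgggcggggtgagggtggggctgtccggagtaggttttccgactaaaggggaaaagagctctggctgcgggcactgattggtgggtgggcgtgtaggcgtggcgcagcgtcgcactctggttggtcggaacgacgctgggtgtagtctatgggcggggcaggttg
Smim14: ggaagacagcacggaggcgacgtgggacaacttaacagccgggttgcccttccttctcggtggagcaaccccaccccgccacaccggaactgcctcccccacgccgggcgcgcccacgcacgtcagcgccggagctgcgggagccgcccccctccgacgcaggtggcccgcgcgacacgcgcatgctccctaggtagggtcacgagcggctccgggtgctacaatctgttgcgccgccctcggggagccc
2900026A02Rik: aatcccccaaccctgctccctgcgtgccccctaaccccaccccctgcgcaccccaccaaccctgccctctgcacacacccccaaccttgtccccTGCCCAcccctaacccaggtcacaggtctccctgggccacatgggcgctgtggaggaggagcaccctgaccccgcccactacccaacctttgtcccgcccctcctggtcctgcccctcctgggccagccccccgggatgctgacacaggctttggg
Osbpl9: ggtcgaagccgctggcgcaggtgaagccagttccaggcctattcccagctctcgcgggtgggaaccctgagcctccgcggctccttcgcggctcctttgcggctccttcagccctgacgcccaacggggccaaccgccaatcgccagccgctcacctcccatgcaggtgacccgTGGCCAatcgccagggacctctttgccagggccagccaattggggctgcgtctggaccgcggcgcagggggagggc
Iffo2: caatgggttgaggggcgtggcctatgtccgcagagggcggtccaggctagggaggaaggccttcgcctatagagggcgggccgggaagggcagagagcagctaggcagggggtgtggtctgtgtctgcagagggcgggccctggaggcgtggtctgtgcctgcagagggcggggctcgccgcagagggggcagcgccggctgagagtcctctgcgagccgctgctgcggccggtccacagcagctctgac
Egf: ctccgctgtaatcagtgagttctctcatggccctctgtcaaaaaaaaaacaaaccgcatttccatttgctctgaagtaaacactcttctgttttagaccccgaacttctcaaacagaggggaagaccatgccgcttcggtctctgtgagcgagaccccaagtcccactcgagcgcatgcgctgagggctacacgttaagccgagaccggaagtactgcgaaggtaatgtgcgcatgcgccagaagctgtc

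The windows lie at chr6:87496328-87496577 on the minus strand for Arhgap25, a GTPase-activating protein for Rac, and at chr9:100643198-100643447 on the plus strand for Stag1, a cohesin subunit. They lie at chr17:7169865-7170114 on the plus strand for Rps6ka2, a ribosomal S6 kinase, and at chr5:65492884-65493133 on the minus strand for Smim14, a small membrane protein. The window of 2900026A02Rik is chr5:113163314-113163563 on the minus strand. The window of Osbpl9, an oxysterol-binding protein relative, is chr4:109118037-109118286 on the minus strand. The window of Iffo2 is chr4:139574470-139574719 on the plus strand, and that of Egf, the epidermal growth factor precursor, is chr3:129725087-129725336 on the minus strand. GC content of the 8 windows ran from 52% in Egf to 72% in Smim14. Arhgap25 held 4 CpG dinucleotides, 2900026A02Rik held 6 and Stag1 held 31. Smim14, Iffo2 and Egf held no TGNCCA match.

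In the deep interior, starts with a member differed in base composition from starts without one. Over 300 bases from 250 before to 50 after the start, the median GC content was 62% at the 123 starts with a member and 48.7% at the 548 without. The median ratio of observed to expected CpG was 0.642 at starts with a member, 0.307 at starts without one and 0.384 over all 32851 annotated starts. CpG-rich starts are, as background, the usual kind for widely active genes. TGACCA, searched on both strands, was in 8.13% of the windows with a member, 13.5% of those without and 13.6% of all windows. TGNCCA, which contains every TGACCA match, was in 42.3%, 45.6% and 46.9% of the same 3 sets. GATAA, the core bound by GATA factors, was in 14.6%, 27.2% and 25.4%. The RUNX core TGTGGT was in 13.8%, 16.1% and 16.8%, the ETS core GGAA in 92.7%, 96.5% and 96%, and the E-box CACGTG in 5.69%, 4.74% and 7.15%. These shares describe letters in windows that differ in GC content, and neighbouring starts of a gene share bases. A member counted if its summit lay within 1 kb of the start, so the window need not hold that summit.

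Members at annotated starts were stronger and wider than the other members in each library. Fold enrichment is the authors' ratio of the summit pileup to the local background, taken here to have 1 added to both. Members at annotated starts had medians of 6.33, 6.65 and 6.27 in libraries 1, 2 and 3, against 6.02, 5.92 and 5.62 for the 1992 members farther away. Their median peak width was 476, 676 and 664 bp, against 422, 511 and 578 bp. On the log2 scale the fold enrichment differed by 0.13 ± 0.05 and the pileup over the library's background by 0.27 ± 0.04 (SD, n = 3). With 3 libraries the exact two-sided permutation test over libraries cannot go below 0.25, which is what each of these differences gave. The same floor holds for every other permutation test over libraries in these results.

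The Stag1 start carried 78, 94 and 76 fragments at the summit in libraries 1, 2 and 3, with a mean fold enrichment of 12.2 ± 2.45 (SD, n = 3). Its region was 1097 bp wide, and the summit lay 49 bp from the start and 45.7 kb inside the gene. Arhgap25 had summit pileups of 77, 102 and 101 fragments, 7 bp from its internal start. Cdyl, a chromodomain corepressor, had 58, 72 and 81 fragments at a start 81.3 kb from its outer start. Runx1, a master regulator of blood stem cell emergence, had a region at chr16:92696685-92698969 whose summit was 222 bp from an internal start. That region was 2285 bp wide and had 36, 43 and 51 fragments at its summit, and the pileup order followed the coverage of the libraries. In Erg, a stem cell ETS factor, 1 of 7 members lay 0.24 kb from an annotated start, with 27, 29 and 25 fragments.

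Across all members, signal was modest and close to that of other regions away from gene ends. The median fold enrichment of the 2193 members was 6.03, 5.97 and 5.69 in libraries 1, 2 and 3, with 17, 21 and 25 fragments at the median summit. Intragenic regions up to 30 kb from a gene end, of which there were 5534, had medians of 5.77, 5.66 and 5.37. The 4327 intergenic regions had 6.09, 5.98 and 5.74, and the 8510 regions within 1 kb of a coding gene end had 7.20, 7.48 and 6.96. The deep regions had lower medians than the gene ends in each library, slightly higher ones than the intragenic regions nearer an end, and were closest to the intergenic regions.

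The mean difference in log2 fold enrichment was 0.07 ± 0.01 from intragenic regions nearer an end, -0.01 ± 0.01 from intergenic regions and -0.29 ± 0.03 from coding gene ends (SD, n = 3). Each gave p = 0.25 in the exact permutation test, and all 3 libraries had the same sign in each comparison. The difference from intergenic regions changed sign in 4 other settings, being 0.00422 without library 1 and 0.00907 without library 3. With −log10 q as the measure, that from intragenic regions nearer an end was -0.08. Pileup over the library's background gave a different order. In log2 units the deep regions lay below intragenic regions nearer an end by -0.27 ± 0.04, below intergenic regions by -0.09 ± 0.02 and below gene ends by -0.52 ± 0.07. Deep regions therefore had fewer fragments than intragenic regions nearer an end but a slightly higher ratio to their local background. Their peaks were 21.7 ± 4.16 bp narrower at the median than those nearer an end, 18.7 ± 5.86 bp wider than intergenic peaks and 165 ± 34.7 bp narrower than peaks at gene ends.

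**Figure D1:**
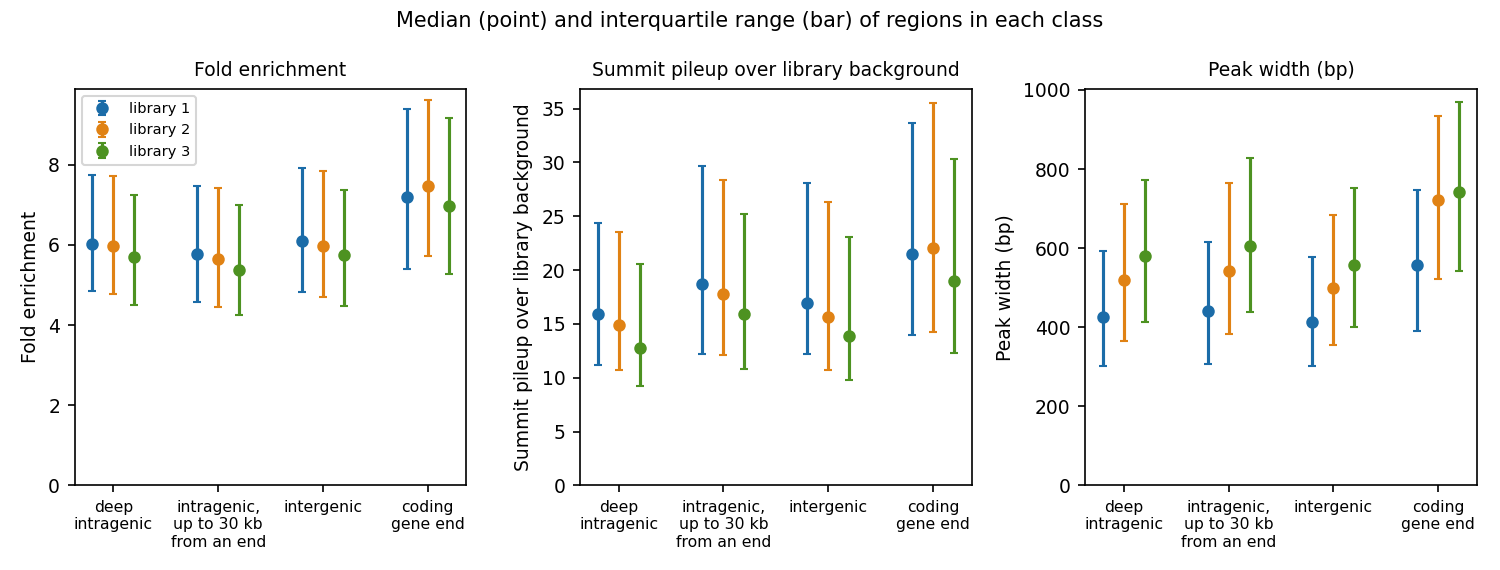
Fold enrichment, summit pileup as a multiple of the library background, and peak width in bp for 4 classes of regions shared by all 3 libraries. Points are medians in each library and bars the interquartile range of the regions, which overlap widely between classes, while coding gene ends have the highest median in all 3 panels.

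Few deep regions were strong, and the same held for other regions away from gene ends. In libraries 1, 2 and 3 the upper quartile of fold enrichment was 7.75, 7.72 and 7.24 in deep regions. It was 7.48, 7.43 and 7 in intragenic regions nearer an end and 7.93, 7.85 and 7.36 in intergenic regions. Mean fold enrichment over the 3 libraries ranged from 2.47 to 46.2 with a median of 5.88, and 154 members (7.02%) reached 10 or more. In 407 members (18.6%) the summit pileup was 10 or fewer fragments in at least 1 library. Neither share was measured in the other classes. The lower quartile of pileup was 12, 15 and 18 fragments in deep regions, 13, 17 and 21 nearer an end and 13, 15 and 19 between genes. The highest of the 3 fold enrichments was that of library 1 in 42.6% of the members and that of library 3 in 23.6%. Library 3 had the highest background, 1.95 fragments per base against 1.07 in library 1.

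The libraries ordered the deep regions less alike than they ordered gene ends. Spearman's rank correlation of fold enrichment between pairs of libraries ran from 0.66 to 0.70 across the deep regions and from 0.78 to 0.82 across the coding gene ends, as a description across regions that share libraries. The median SD of log2 fold enrichment between libraries was 0.215 in deep regions, 0.197 in intragenic regions nearer an end, 0.21 in intergenic regions and 0.19 at gene ends. Among the members it was 0.246 in the 549 of lowest pileup and 0.179 in the 548 of highest pileup. Summits of the 3 libraries lay within 129 bp of each other in the median member.

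The members with the largest SD moved with different libraries. St6gal1, a sialyltransferase, had fold enrichments of 7.86, 6.67 and 2.59 in libraries 1, 2 and 3, and Dlg2, a synaptic scaffold, had 14.5, 11.8 and 5.09. Samd4, an RNA-binding translational repressor, had 10.7, 7.06 and 3.73. Library 3 was the low one in these. Nedd9, a focal adhesion scaffold, had 4.35, 10.1 and 10.9, and Rtn1, a reticulon of the endoplasmic reticulum, had 6.73, 14.1 and 16.4, with library 1 low in both. The SD on the log2 scale exceeded 0.5 in 67 members (3.06%). At the other end, a region in Hivep3 had 6.58, 6.61 and 6.63, and regions in Snx29, Septin9, Rai1 and Nlk varied as little, with an SD of at most 0.0505 in fold enrichment.

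Most deep signal was seen in 1 or 2 libraries. Of 7965 deep regions with a peak of any library, 4385 had a peak of 1 library, 1387 of 2 and 2193 of 3, so that 27.5% were members. The same share was 32.1% for intragenic regions nearer an end, 27.6% for intergenic regions and 65.4% for coding gene ends. The regions of 1 library were weaker, with median pileups of 8, 10 and 12 fragments in libraries 1, 2 and 3. Among peaks of a matched pileup, 10 to 15 times the library's background, 63.4 ± 5.9% of deep peaks fell in a region shared by all 3 libraries. The values were 56.6 ± 3.56% nearer an end, 60.3 ± 6.82% between genes and 76.9 ± 1.93% at gene ends. At this pileup the deep regions exceeded the intragenic regions nearer an end by 6.83 ± 2.95 percentage points (SD, n = 3, exact permutation p = 0.25), in 3 of 3 libraries.

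Of 4158 protein-coding genes with any base in the deep interior, 1029 (24.7%) held a member. This share of eligible genes is the background for the gene lists below. Among them 555 held 1 member, 474 held 2 or more and 59 held 6 or more. Library by library, 1609, 1461 and 1658 eligible genes had a deep peak. The deep interior covered 490 Mb, and members occurred at 4.48 per Mb.

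The density varied by chromosome. It was 4.67 per Mb over the autosomes and 0.732 per Mb on X, where 17 members lay in 23.2 Mb, and none lay on Y. Chromosomes 11 and 19 had the highest densities, 7.6 and 7.44 per Mb, and chromosome 3 the lowest of the autosomes, 2.89 per Mb. Shared regions of every class numbered 2025 on chromosome 11, the most of any, 780 on 19, 943 on 3 and 297 on X. The densities may therefore not be particular to deep regions. On X, 4 of the 17 members lay in Bcor, a corepressor that partners with Bcl6. The number of X copies in these cells was not given, and its part in the difference was not tested.

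Longer genes held a member more often but held fewer per Mb. Among genes of 60 to 100 kb, 11.6% held a member, at 9.7 per Mb. The values were 29.3% and 7.6 per Mb for 100 to 200 kb, 41.2% and 4.82 per Mb for 200 to 500 kb, and 41.6% and 1.22 per Mb for genes over 500 kb. The fall with length stood in each library's own peaks, where the means were 18.1 ± 2.25, 14.8 ± 1.93, 10.4 ± 1.34 and 3.5 ± 0.58 per Mb (SD, n = 3). Host genes had a median length of 161 kb, against 101 kb for eligible genes without a member.

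**Figure D2:**
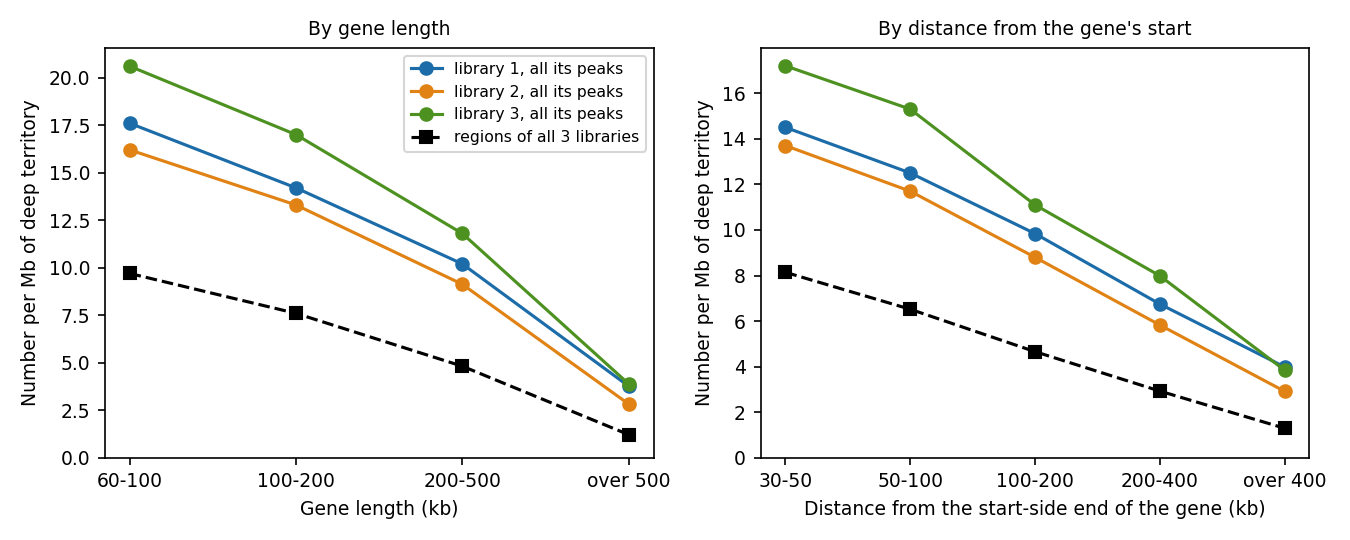
Number of regions or peaks per Mb of deep gene interior, by gene length in kb and by distance in kb from the gene's start. Coloured lines are all peaks of each library and the black dashed line the regions of all 3 libraries, which fall from 9.7 to 1.22 per Mb with gene length and from 8.14 to 1.3 per Mb with distance, as each library's line does.

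The density was also lower farther from either end of the gene. For the 3236 eligible genes whose strand could be read, it was 8.14 per Mb at 30 to 50 kb from the start-side end, 6.52 at 50 to 100 kb and 4.66 at 100 to 200 kb. It was 2.93 at 200 to 400 kb and 1.3 beyond 400 kb. Measured from the far end it was 6.77, 6.98, 5.15, 3.31 and 0.814 per Mb in the same bins. Because far positions exist in long genes alone, the density by distance from the start was also measured within the 565 genes of 200 to 500 kb. There the density was 6.4, 6.07, 5.35 and 4.38 per Mb in the first 4 of these bins, and 12.5 ± 1.41, 12.3 ± 1.34, 11 ± 1.23 and 9.84 ± 1.57 in each library's own peaks (SD, n = 3). The fall within genes of like length was therefore smaller than over all genes. Of 1744 members, 928 (53.2%) lay nearer the start than the far end of the gene, as did 50.9 ± 1.06% of each library's own deep peaks (SD, n = 3, exact permutation p = 0.25 against 50%).

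Host genes also had signal at their ends more often than other long genes. A region shared by all 3 libraries lay within 1 kb of an outer end in 50.1% of host genes and in 42.5% of eligible genes without a member. In single libraries the shares were 57.5%, 60.8% and 62.8% for hosts, against 48.5%, 51.3% and 52.7% for the others, a difference of 9.52 ± 0.547 percentage points (SD, n = 3, exact permutation p = 0.25). Hosts are longer than other eligible genes, and the same was therefore measured within length classes. The share was 55.5% against 50.5% at 60 to 100 kb, 55.1% against 41.5% at 100 to 200 kb, 47.5% against 27.4% at 200 to 500 kb and 25.5% against 9.85% above 500 kb, so hosts had the higher share in each class. In all, 516 of 1029 hosts had a shared region at an end, against 1331 of 3129 other eligible genes.

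Most members had no other member of their gene within 10 kb, and some came in groups. In the 473 genes with several members, with the 6 members that lie in 2 overlapping hosts counted for 1 of them, the 1166 gaps between neighbouring summits had a median of 15.9 kb and ranged from 0.645 to 1030 kb. Linking members whose summits were no more than 10 kb apart gave 1506 single members, 219 pairs and 12 groups of 5 or more. The group with most members was in Gse1, with 11 over 60.2 kb. Sema4d, a semaphorin of lymphocytes, had 7 over 27.6 kb, and Pik3ap1, an adaptor for PI3 kinase in B cells, had 7 over 44.2 kb. Ablim1 and Zfhx3 had groups of 6, over 28.7 and 32.1 kb. Groups of 5 also lay in Smad3, a transducer of TGF-beta signals, over 29.3 kb, and in Bach2 over 21.5 kb.

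**Figure D3:**
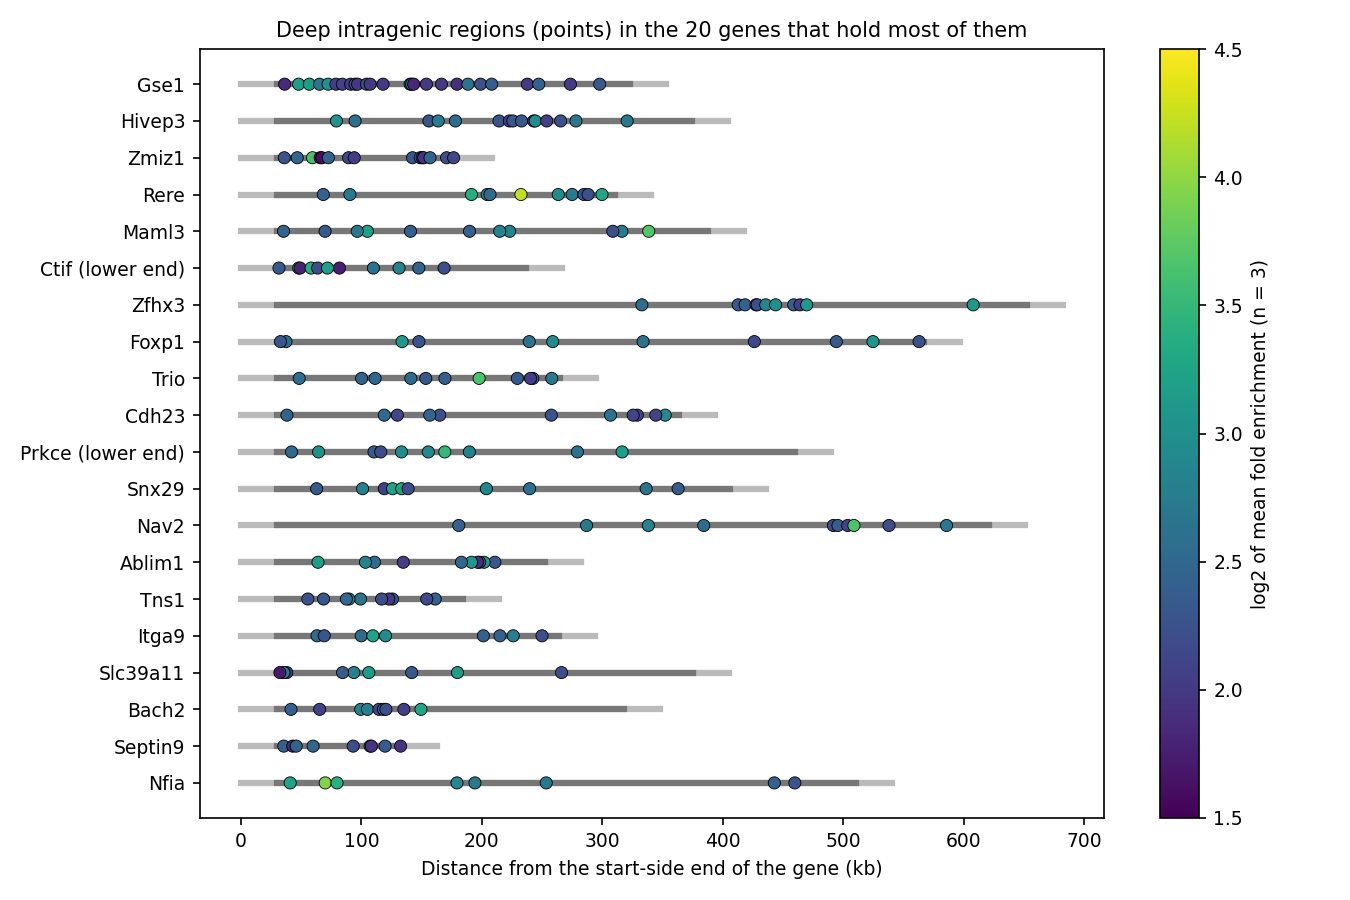
Position of each member, in kb from the start-side end of the gene, in the 20 genes with the most members, coloured by log2 of the mean fold enrichment over 3 libraries. Dark bars are the stretch over 30 kb from both ends, genes marked lower end have no strand in the table used, and members crowd in stretches of Gse1, Zfhx3 and Bach2.

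The 20 genes with the most members held 227 of them (10.4%), between 8 and 26 each, in genes of 162.7 to 682.3 kb. Gse1, a subunit of a histone deacetylase and LSD1 corepressor complex, held 26. Hivep3, a zinc finger factor, and Zmiz1, a coactivator of Notch1, held 15 each. Rere, an atrophin-family corepressor, Maml3, a coactivator of Notch, Zfhx3, a zinc finger homeobox factor, and Foxp1, a forkhead repressor, held 11 each. Ctif, a translation initiation factor, Trio, a guanine nucleotide exchange factor, and Cdh23, a cadherin of hair cells, also held 11.

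The remaining genes among the 20 included regulators of adhesion and signalling. Prkce (protein kinase C epsilon), Snx29 (a sorting nexin), Nav2, Ablim1 (an actin-binding LIM protein) and Tns1 (tensin 1, of focal adhesions) held 10 each. Itga9 (integrin alpha 9), Slc39a11 (a zinc transporter), Bach2 (a repressor in lymphocytes) and Septin9 (a cytoskeletal GTPase) held 9 each, and Nfia, a nuclear factor I gene, held 8. Their median fold enrichments ran from 4.3 in Gse1 to 7.26 in Prkce. Of the 227 members in these genes, 6 lay within 1 kb of an annotated start.

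In Gse1, the members began 36.3 kb from the start of a gene of 352.9 kb and ran to 297.9 kb. The strongest by fold enrichment, at chr8:120276077-120277476, had summit pileups of 86, 115 and 153 fragments and fold enrichments of 9.48, 8.96 and 8.7. A neighbour 56.8 kb from the start had 103, 122 and 160 fragments. A second concentration lay between 140.5 and 143.4 kb, where 3 regions had 155, 175 and 248, then 220, 302 and 365, then 133, 135 and 168 fragments. Their mean fold enrichments were 4.36, 6.69 and 3.52, against a median of 5.88 over all members. A high pileup with a low fold there goes with a high local background, since fold enrichment divides by it. Library 1, 2 and 3 had 46, 40 and 44 deep peaks of their own in Gse1, and 32 further deep regions had a peak of 1 or 2 libraries.

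Zmiz1 had the densest deep signal of the 20, 111 members per Mb of its interior, ahead of Septin9 with 97.1 and Gse1 with 93.9. Its strongest region, chr14:25516688-25517661, had 175, 238 and 322 fragments and fold enrichments of 12.3, 12 and 12.4. The fold enrichments of the 3 libraries differed there by less than their pileups did. In Rere the strongest region, chr4:150513540-150514845, had 836, 966 and 1075 fragments, while its other members were weaker, with a median fold enrichment of 6.58 over all 11. In Nfia the strongest, chr4:97647685-97648413, had 59, 61 and 75 fragments and a mean fold enrichment of 15.3 ± 2.16 (SD, n = 3).

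Very long hosts were mostly sparse. Of 226 eligible genes over 500 kb, 94 held a member and 25 held 3 or more. Zfhx3, Foxp1, Nav2 and Nfia led them, followed by Wwox, a tumour suppressor at a fragile site, Arhgap26, a GTPase-activating protein, and Rora, a nuclear receptor, with 7 each. Pde4d, a cyclic AMP phosphodiesterase of 1301.8 kb, held 6. Camta1, a transcription activator, Celf2, an RNA-binding splicing factor, and Sdk1, a cell adhesion protein, held 5. Rora held the strongest of these, chr9:69099573-69100280, with 147, 145 and 171 fragments and fold enrichments of 28.3, 25.3 and 22.6. Fhit, at a fragile site in a gene of 1612 kb, held 3.

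Gene lists were compared by the share of eligible genes that held a member and by density, both of which varied with gene length. Density pools the deep bases of a list, so its longest genes weigh most. Setting it beside a length class by the list's median length is therefore a loose match. Over all eligible genes they were 11.6% and 9.7 per Mb at 60 to 100 kb. At 100 to 200 kb they were 29.3% and 7.6 per Mb. Blood transcription factors had the highest values, with 27 of 40 eligible genes (67.5%) and 16.3 members per Mb, against 24.7% and 4.44 per Mb over all eligible genes. Their median length was 142 kb, against 113 kb over all. In single libraries 28.2, 26.8 and 34.7 peaks per Mb fell in their interiors, against 9.24, 8.22 and 10.6 over all genes. The median fold enrichment of their members, 5.86, was close to the 5.88 of all members.

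Foxp1 held 11 members, Bach2 9, Nfia 8, and Rora, Erg and Runx2, the bone and blood Runt factor, 7 each. Prdm16, a methyltransferase-family regulator of stem cell maintenance, and Etv6, an ETS repressor, held 5 each. The strongest Erg region, chr16:95405626-95406068, had 37, 35 and 39 fragments. In Meis1, a homeobox factor of stem cells, 3 members had 16, 36 and 26, then 12, 14 and 21, then 38, 44 and 55 fragments. Library 2 was highest in the first, and library 3 in the other two. The eligible list members without a member included Bcl11a, Bcl11b, Cbfa2t2 and Elf1.

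Bcl11a had no deep member, although it is eligible with 36993 bases of deep interior in a gene of 96995 bases at chr11:24076564-24173558. In that interior, 6 regions had a peak of 1 library and 1 had peaks of libraries 1 and 3. Their pileups ran from 12 to 25 fragments, and most came from library 3, the one of highest coverage. The region at chr11:24141621-24142185 had 13 fragments in library 1 and 20 in library 3. Closer to the ends, 4 regions were shared by all 3 libraries, and the strongest of them, chr11:24077053-24078082 near one outer end, had 94, 155 and 142 fragments. A shared region at 26268 bp from that end had 11, 11 and 19 fragments and missed the distance rule. Another, chr11:24144430-24144872, had 13, 15 and 30 fragments and missed it more narrowly, at 28939 bp from the other end. Both lay over 20 kb from both ends, so the lack of a deep member in Bcl11a depends on the distance chosen.

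Chromatin regulators held members in a smaller share of genes than transcription factors and at a lower density. Of 52 eligible corepressor and chromatin genes, 19 (36.5%) held a member, at 12.3 per Mb. With a median length of 119 kb, they compare with the 29.3% and 7.6 per Mb of eligible genes of 100 to 200 kb. Zmiz1 accounted for 15 of their 62 members. Arid1b, a subunit of the BAF remodeller, held 6, and Dnmt3a, a DNA methyltransferase that restrains stem cell self-renewal, 4. The strongest Dnmt3a region, chr12:3855729-3856624, had 81, 158 and 147 fragments and a mean fold enrichment of 13.8 ± 1.64 (SD, n = 3). Chd7, Aff1 and Bcor held 4 each and Ncoa2 held 3. Arid1a, Arid2 and Asxl2 were among the 33 with none.

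Cytokine receptors, kinases and other signalling genes, of a median length of 116 kb, had members in 31 of 53 (58.5%), at 13.1 per Mb. Prkce held 10, Smad3 and the receptor Igf1r 5 each, and Rps6ka2, Rasa3, Prkca, Map3k5 and Inpp5a 4 each. The Smad3 region chr9:63726235-63727329 had 155, 168 and 236 fragments. Camk1d, in the same list, held 1 member with 277, 423 and 493 fragments.

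Of 14 eligible genes of quiescence and the cell cycle, 5 (35.7%) held a member, at 11 per Mb. With a median length of 98.7 kb, they compare with 11.6% and 9.7 per Mb over all eligible genes of 60 to 100 kb. The density is the looser match, since Cdk14 and Rptor gave 514.7 and 232.7 kb of the list's 1.27 Mb. Cdk6, a kinase that drives stem cells out of quiescence, held 5, and its strongest region, chr5:3479820-3480569, had 27, 36 and 56 fragments. Rptor, the scaffold of mTORC1, also held 5. Cdk17 held 2 and Ccnd3 and Cdk14 held 1 each, while Atm, Atr, Ccny and E2f3 held none. Long housekeeping genes had members in 11 of 44 (25%), at 3.15 per Mb, against 24.7% and 4.44 per Mb over all eligible genes. With a median length of 178 kb, they lay below eligible genes of 100 to 200 kb, which had 29.3% and 7.6 per Mb. Wwox held 7 of their 30, and Vps13d and Med13l held 4 each.

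Genes of tissues not sampled had members too, at low density. Of 58 eligible long genes of neurons, 18 (31%) held a member, at 0.415 per Mb. With a median length of 1040 kb, they compare with the 41.6% and 1.22 per Mb of eligible genes over 500 kb. Each library's own peaks gave 2.49, 1.46 and 2.47 per Mb in them. Dlg2, Dpp6, Rbfox1, Ptprt and Cdh13 held 2 each. Lrp1b, a large lipoprotein receptor, held 1 narrow region of 52, 73 and 73 fragments, with a fold enrichment of 23.6 ± 0.322 (SD, n = 3). Long genes of muscle, stroma, endothelium and epithelium had members in 16 of 40 (40%), at 1.75 per Mb. With a median length of 178 kb, they compare with the 29.3% and 7.6 per Mb of eligible genes of 100 to 200 kb. Their share was thus above that of these genes, and their density below it. Ptprm held 3, and Flt1, a VEGF receptor of endothelium, held 2.

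**Figure D4:**
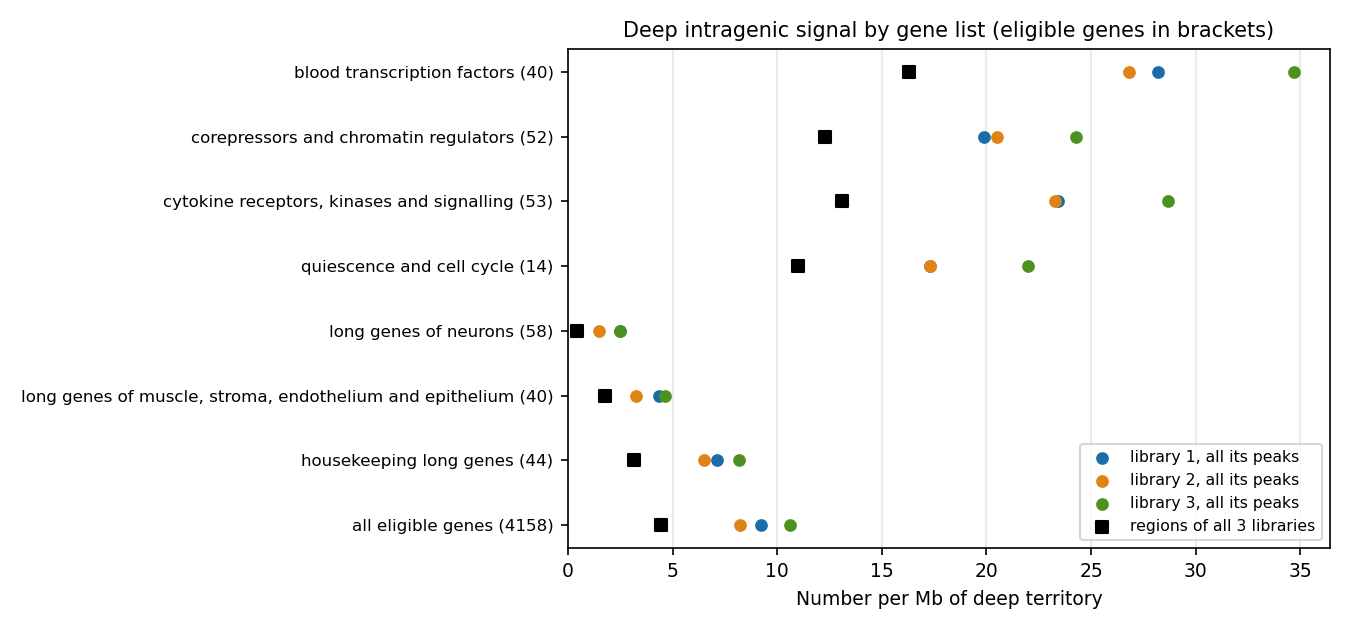
Deep peaks of each library (coloured points) and regions of all 3 libraries (black squares) per Mb of deep interior, by gene list, with the number of eligible genes in brackets. Blood transcription factors lie highest at 16.3 regions per Mb and long genes of neurons lowest at 0.415, against 4.44 for all eligible genes. The lists differ in gene length, with which density falls.

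Marker genes gave a limited check of the labelled cell type, because binding is not expression and many markers are short. A shared region lay at an outer end of 42.8% of all protein-coding genes. A member was held by 24.7% of eligible genes, 41.2% of those of 200 to 500 kb and 41.6% of longer ones. Of 8 markers of stem and progenitor cells, 6 had a shared region at an end, and 5 of the 6 that are long enough held 15 members. Erg held 7, Meis1 and Runx1 3 each, and Flt3 and Mecom 1 each, while Kit held none. Of 4 B cell markers, 1 had an occupied end and the 3 long ones held 12 members, 9 of them in Bach2. Of 4 T cell markers, 1 had an occupied end and Tox alone held a member. Myeloid markers had occupied ends in 2 of 4 and none was long enough to hold a member. Of 4 erythroid and megakaryocyte markers, 2 had an occupied end, and Ank1 held 4 members. Of 6 stromal and endothelial markers 1 had an occupied end, and 3 of the 4 long ones held 4 members. Of 5 neuronal markers 1 had an occupied end, and 3 of the 5 held 4 members. Stromal and neuronal markers thus also held members more often than the 24.7% of eligible genes. Whether other cells were in the sort was not tested.

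By mean fold enrichment the first was in Chl1, a neural adhesion molecule, at chr6:103649048-103649343, with 51.6, 44.8 and 42.1 in libraries 1, 2 and 3. Its pileups were 1367, 1328 and 1703 fragments in a region of 296 bp whose summit was at the same base in all 3 libraries. Lama1, a laminin chain, followed with a mean of 44.8 ± 5.18, Flt1 with 44.7 ± 5.62, and Lpp, a LIM protein of adhesion sites, with 41.2 ± 4.76 (SD, n = 3). Gphn (gephyrin) reached 40.8 ± 3.04, Camk1d, a calmodulin-dependent kinase, 37.1 ± 3.63, and Jarid2, a cofactor of Polycomb repressive complex, 35 ± 3.05. A region in the overlapping genes Filip1l and Cmss1 reached 33.7 ± 2.26, Phactr2 32 ± 2.93 and Cdk8, the Mediator kinase, 31.5 ± 1.06. None of these 10 lay within 1 kb of an annotated start. Fold enrichment has a ceiling set by the local background, so this order is not one of fragments. Flt1 had 852, 1019 and 784 fragments in a region of 287 bp. Rere, with 836, 966 and 1075 fragments over 1306 bp, had a mean fold enrichment of 18.6.

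By pileup, 12 members had a mean of 200 or more times the library's background, and the next had 166 times. They were those in Chl1, Rere, Filip1l and Cmss1, Flt1, Cdk8, Lama1, Mdga2, Lpp, Jarid2, Camk1d, Gphn and Gse1, of which the last was named after its value was seen. The Mdga2 region had 474, 598 and 757 fragments and the Cdk8 region 637, 848 and 1135. These 12 were narrow for their height, with a median width of 500.5 bp against 680 bp for the other 2181. Their summits spanned a median of 9.5 bp between libraries, against 130 bp for the rest. Among the 10 strongest by fold enrichment, 7 were highest in library 1 and lowest in library 3, as in Chl1, while Camk1d and Jarid2 were highest in library 2. Repeats, copy number and lists of problem regions were not used here, so their part in these 12 was not tested.

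**Figure D5:**
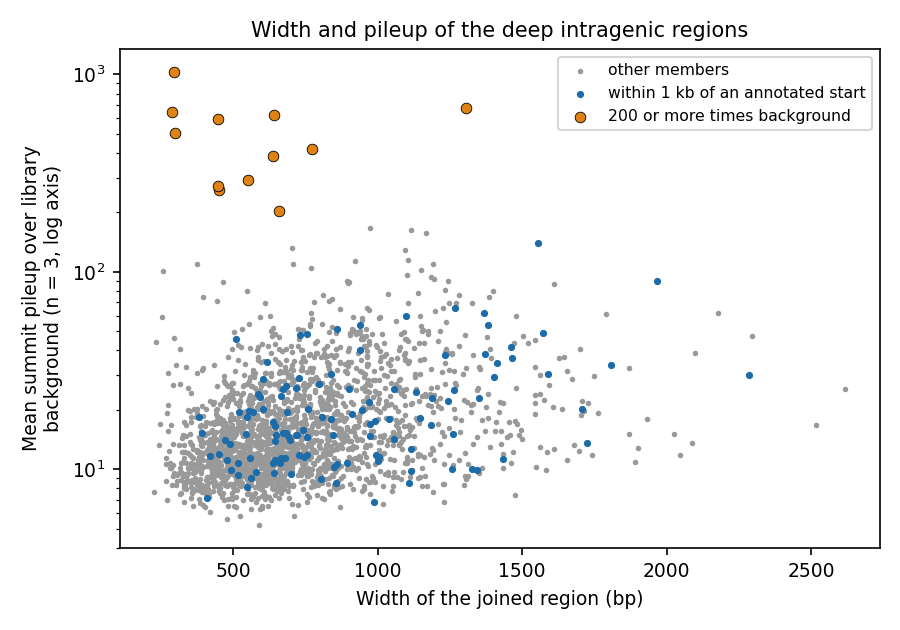
Mean summit pileup over the library background (log axis) against the width of the joined region in bp, for the 2193 members. The 12 members at 200 or more times the background (orange) lie highest, at widths of 287 to 1306 bp, and members within 1 kb of an annotated start (blue) spread through the remainder.

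The widest members were not among these 12. A region of 2618 bp in Sox5, an SRY-box factor, at chr6:144667543-144670160, had 32, 34 and 44 fragments and a mean fold enrichment of 4.87 ± 0.377 (SD, n = 3). Its peaks were 2618, 2439 and 2495 bp wide in libraries 1, 2 and 3. Cdk6 had a region of 2516 bp with 22, 23 and 26 fragments, Nol4l one of 2297 bp with 51, 66 and 93, and Septin9 one of 2179 bp with 65, 91 and 118. The Runx1 region at its internal start was the fourth widest. In the other 4 the width differed between libraries, being 733, 742 and 1888 bp in Nol4l and 770, 2150 and 2105 bp in Septin9. It was 990, 2216 and 2123 bp in Runx1 and 2420, 2457 and 1208 bp in Cdk6. The summits of the libraries lay as far as 1193 bp apart in Sox5 and 1791 bp apart in Cdk6.

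At the distance threshold, the members just inside lay in Arhgap26, Tspan14 and Septin9, at 30014, 30016 and 30018 bp from the nearest end. Just outside lay regions in Scn11a at 29969 bp, Lrrfip1 at 29914 bp and Sulf2 at 29899 bp. The mean fold enrichment was 4.75, 5.71 and 3.86 for those inside and 5.53, 5.91 and 11.9 for those outside.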

How the data were processed

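Peaks were measured by CUT&Tag in 3 libraries of 1 group. The submitters' processing notes name Bowtie2, SAMtools and MACS2 and the build mm10. Versions, settings and duplicate removal are not given in the sources used here. One peak list per library was deposited by the authors, with 38731, 36459 and 43462 peaks on the chromosomes used. The deposited lists give for each peak a fold enrichment, which is a ratio to the caller's local background, the −log10 p and −log10 q values, and the summit position. The lowest deposited −log10 q was 1.3, a q of 0.05.

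The deposited lists hold no fragment counts. Summit pileup and background were solved from the fold enrichment and −log10 p as a Poisson tail. The fold enrichment was taken as the pileup plus 1 over the local background plus 1. At least 99.96% of pileups came out whole within 0.05 of a fragment in each library. Coverage is given by a library's lowest solved background (1.07, 1.41 and 1.95 fragments per base). PCR copies without molecular identifiers are not independent molecules, so pileups may count a molecule more than once.

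Region building and placement were tested on simulated data and run in Python 3.11.15 with numpy 2.4.6, pandas 2.3.3 and scipy 1.17.1. A region took, per library, the peak of highest −log10 p, and its summit was the mean over libraries of the summit of each library's widest peak. Gene ends came from the RefSeq gene table of GRCm38.p6. Strand, annotated starts and windows from 250 bases before to 50 after a start came from the RefSeq promoter table, which gave no starts for chromosome 18. Exons, introns and UTRs were not told apart, and the DNA of the members themselves was not analysed here. Differences between classes were taken within each library and tested by the exact two-sided permutation of their 3 signs. The members, the gene lists and the rule for named genes were chosen with earlier results of these data known. That rule takes the 20 genes with most members, the 10 strongest members by fold enrichment and by pileup, the 5 widest, the 5 with the largest and smallest SD, Bcl11a, genes over 500 kb with 3 or more members, up to 8 genes of each list with most members and up to 4 with none, and the members at the distance threshold. Starts named with their sequence were the 8 of highest pileup. Some genes and 1 planned gene list are not reported here.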

Additional observations from a re-analysis of the deposited data

Results flagged for a closer look

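Deep intragenic signal outside the regions used above was singled out because it lies in data that the comparisons did not use. In the same gene interiors, 4385 regions had a peak of 1 library and 1387 had peaks of 2 libraries. The regions of 1 library had median fold enrichments of 4.3, 4.14 and 3.81 in libraries 1, 2 and 3, and those of 2 libraries had 4.72, 4.57 and 4.35, against 6.03, 5.97 and 5.69 in regions of all 3. Library 3 gave 1934 of the regions of 1 library, library 1 gave 1459 and library 2 gave 992. No control library was analysed here to set a level for them.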

How the results depend on the processing

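No paired analysis was possible because the study holds a single group of 3 libraries. Of 143 recomputed differences between deep regions and other classes, or between host and other genes, 138 kept their direction, and none could pass a threshold with 3 libraries. With −log10 q in place of fold enrichment, the log2 difference of deep regions from intragenic regions nearer an end was -0.0831, against 0.0745 for fold enrichment. The difference from intergenic regions, -0.00916, became 0.00978 with the 10000 strongest peaks of each library and 0.0075 with a peak of at least 2 libraries. It was 0.00422 without library 1 and 0.00907 without library 3, and ran from -0.00742 to 0.00907 with each library left out in turn.

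Numbers of regions followed the peak threshold and the distance rule. There were 1420 deep regions at −log10 q of at least 5, 447 with the 10000 strongest peaks, 3580 with a peak of at least 2 libraries and 1306 beyond 50 kb. Their share of all regions was 8.49%, 6.2%, 10.9% and 5.68% in these settings, 13.1% beyond 20 kb, and 9.86% to 10.3% without 1 library. Host genes numbered 341 with the strongest peaks and 612 beyond 50 kb. The share of eligible genes with a member was 22% with 50% reciprocal overlap, 19.3% at −log10 q of at least 5, 8.2% with the strongest peaks, 33.1% with at least 2 libraries, and 26.9% to 28.5% without 1 library. Density was 2.9, 0.913 and 7.31 per Mb at the stricter q, with the strongest peaks and with at least 2 libraries.

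With the strongest peaks, 8.2% of all eligible genes had a member. The numbers with a member were 13 of 40 blood transcription factors, 11 of 52 chromatin regulators, 10 of 53 signalling genes and 3 of 14 cell cycle genes. They were 3 of 58 neuronal genes, 2 of 40 genes of muscle and other tissues and 6 of 44 housekeeping genes. Signalling genes numbered 16 beyond 50 kb, and cell cycle genes 8 beyond 20 kb and 3 beyond 50 kb. The eligible genes differ at these distances, and over all of them the share was 24% at 20 kb and 25.2% at 50 kb. At the stricter q, 9 of 40 genes of muscle and other tissues had a member, against 19.3% over all. With at least 2 libraries, 30 of 58 neuronal and 18 of 44 housekeeping genes had a member, against 33.1% over all. Among the 20 leading hosts, 186 of 220 recomputed numbers of members were within 1.5 times those given. Leaving out the members at annotated starts, leaving out those of 200 or more times background, and using autosomes alone were chosen after seeing the data and turned no direction. The planned motif windows around the summits were not run, since no genome was used. The median summit pileup of the members was 17 to 25 fragments. Whether deep regions without a peak in some library were missed there for lack of depth was not tested.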
